A study of Mus musculus with 6 samples.

Results

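The sialyltransferases and the genes of sialic acid synthesis, transport, modification and removal were followed in bulk RNA sequencing of 6 mouse tumours. The set was defined by gene name and holds 33 of the 57462 genes in the files, 20 of them sialyltransferases and 13 of them other genes of the pathway. One name, St6galnac2, had a pair of gene entries, which gave 34 entries in all. The tumours came from HM1 cells, an ovarian cancer line of the mouse, in what the series calls an early tumour model. In 3 tumours the cells carried a short hairpin RNA against ST3GAL3 (shST3GAL3 1, 2 and 3, genotype and treatment labelled as ST3GAL3 knockdown). The other 3 carried a control hairpin (shControl 1, 2 and 3, genotype and treatment labelled wild type). The hairpin sequence, the number of hairpins or clones, the host strain, its age and the site of the tumours are not stated in the sources at hand. Whether tumours of a group came from different mice is not labelled either, so each p-value speaks of the spread among these samples only, which may be technical.

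Sialic acids are acidic sugars that cap the glycan chains of cell surface and secreted proteins and lipids. They are built in the cytosol from UDP-N-acetylglucosamine, activated in the nucleus to CMP-sialic acid and carried into the Golgi. There the sialyltransferases attach them, each family to its own linkage: ST3GAL enzymes make alpha2,3 links to galactose, ST6GAL enzymes alpha2,6 links to galactose, ST6GALNAC enzymes alpha2,6 links to N-acetylgalactosamine, and ST8SIA enzymes alpha2,8 links to another sialic acid. Sialidases remove them again. Sialylated glycans are ligands of the Siglec receptors of immune cells and are often abundant on tumour cells.

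Levels are in TPM, each library's transcripts scaled to a common total, which allow for gene length and can be compared between genes. They keep no read number, so library depth is unknown. The libraries had 13930 to 14762 genes at 1 TPM or more. The library shST3GAL3 1 stood apart from the rest. On log2(TPM + 1) its Pearson correlation with the other 5 libraries was 0.926 to 0.956, while those 5 correlated with each other at 0.971 to 0.982. Fibroblast markers summed to 7532 TPM in it, against 1667 to 2357 TPM in the other shST3GAL3 tumours and 894.9 to 1404 TPM in shControl tumours. All 10 of these markers were highest in shST3GAL3 1, and 9 of 10 lay above the shControl range in all 3 shST3GAL3 tumours. Endothelial markers summed to 281.1, 123.3 and 101.4 TPM in shST3GAL3 1, 2 and 3, against 56.07 to 78.97 TPM in shControl tumours, with 7 of 8 above the shControl range in all 3 shST3GAL3 tumours. Adipocyte markers summed to 72.62, 42.88 and 13.02 TPM in shST3GAL3 1, 2 and 3, against 6.83 to 12.06 TPM in shControl tumours, with 4 of 4 above. Fabp4 made up most of these sums, at 67.21, 37.1 and 11.82 TPM in shST3GAL3 1, 2 and 3. The remaining adipocyte markers (Adipoq, Cidec and Plin1) did not exceed 3.04 TPM in any library. The summed epithelial tumour markers, mostly the keratin genes Krt8, Krt18 and Krt19, came to 1782, 2703 and 3214 TPM in shST3GAL3 1, 2 and 3 and to 3209 to 3690 TPM in shControl tumours. Only 1 of these 10 markers lay below the shControl range in all 3 shST3GAL3 tumours, and 3 of 10 were highest in shST3GAL3 1: Cdh1 (9.46 TPM, against 2.44 to 3.14 TPM in the other 5 libraries), Wt1 (3.01 TPM, against 0.49 to 1.48 TPM) and Epcam (1.17 TPM, against 0.07 to 0.31 TPM). Muc16, also a marker of ovarian cancer, was listed at 0 in all 6 libraries.

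St3gal3, the targeted gene (ENSMUSG00000028538, chromosome 4), encodes an enzyme that sialylates galactose joined to N-acetylglucosamine on glycoproteins. It stood at 8.44, 6.77 and 7.49 TPM in shST3GAL3 1, 2 and 3, against 14.03, 13.84 and 13.79 TPM in shControl 1, 2 and 3. All shST3GAL3 values lay below all shControl values, and 54.5% of the shControl mean was left. The log2 fold change was -0.80 (SE 0.11). Its unadjusted limma p was 0.000185, and the p adjusted over all 14207 genes was 0.348, so the gene did not pass the threshold of 0.05. The adjusted p ranged from 0.0337 with library weights to 0.662 without shControl 3. An exact two-sided permutation test of 3 against 3 tumours gave p = 0.1, the smallest this design allows. These are whole tumours, and fewer cells of a type and less RNA per cell cannot be told apart in them.

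St6galnac4 and St6galnac6 are neighbours on chromosome 2, of which St6galnac4 alone separated the groups. The start regions of these and of the targeted gene, 3 in all, are shown. Each is a window of 300 bases around a RefSeq start, given 5′ to 3′ on the gene's strand (RefSeq, build GRCm38.p6, another build than that of the files). Capitals mark 3 motifs searched on both strands, the GC box GGGCGG, the CCAAT box CCAAT and the TATA box TATAAA. St3gal3 lies at chr4:118134897-118135196 (minus strand), St6galnac4 at chr2:32586828-32587127 and St6galnac6 at chr2:32599459-32599758 (both plus strand).
St3gal3: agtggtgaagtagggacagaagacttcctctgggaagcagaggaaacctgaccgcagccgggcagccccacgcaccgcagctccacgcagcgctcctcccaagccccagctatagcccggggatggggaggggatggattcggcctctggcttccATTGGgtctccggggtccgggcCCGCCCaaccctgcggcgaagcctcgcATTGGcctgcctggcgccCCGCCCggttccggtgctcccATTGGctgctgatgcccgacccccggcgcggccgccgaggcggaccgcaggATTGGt
St6galnac4: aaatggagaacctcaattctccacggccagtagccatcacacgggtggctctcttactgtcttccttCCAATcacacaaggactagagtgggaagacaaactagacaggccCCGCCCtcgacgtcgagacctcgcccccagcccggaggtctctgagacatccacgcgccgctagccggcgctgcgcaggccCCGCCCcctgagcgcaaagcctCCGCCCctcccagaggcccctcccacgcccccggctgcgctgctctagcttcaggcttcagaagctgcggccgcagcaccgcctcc
St6galnac6: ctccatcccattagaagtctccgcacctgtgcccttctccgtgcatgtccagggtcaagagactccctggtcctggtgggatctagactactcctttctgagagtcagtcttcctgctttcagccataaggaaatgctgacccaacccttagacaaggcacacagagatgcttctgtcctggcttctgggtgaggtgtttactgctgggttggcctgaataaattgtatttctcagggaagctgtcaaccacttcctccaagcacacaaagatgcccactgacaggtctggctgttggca

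The St3gal3 window held 2 GC boxes, 4 CCAAT boxes and 26 CpG dinucleotides. St6galnac4 had 3 GC boxes, 1 CCAAT box and 23 CpG dinucleotides, and its start lay 12631 bases from that of St6galnac6, whose window held none of the 3 motifs and 2 CpG dinucleotides. The promoter table had entries for 23 of the 33 genes, with 30 start sites between them. Start sites of members that passed the filter on low values (at least 1 TPM in 3 or more libraries) had a median of 18 CpG dinucleotides (19 sites, 15 genes), and those of the remaining members 6 (11 sites, 8 genes). Over all genes of the files with a promoter entry, the medians were 20 where the gene passed (12930 sites, 10146 genes) and 4 where it did not (12703 sites, 10822 genes). Single genes went against that order: St6galnac6 averaged 32.6 TPM over the 6 tumours with 2 CpG dinucleotides, while St8sia6 had 39 and averaged 0.227 TPM. GC boxes stood in 63.2% of the members' sites that passed, against 60.9% of all sites of genes that passed and 35.7% of all promoters in the table. CCAAT boxes stood in 57.9%, against 37.9% and 37.4%, and TATA boxes in 5.26%, against 7.55% and 13.6%. These matches describe the letters only, and a link to the group differences was not tested.

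Of the 33 genes, 21 passed the filter and were tested, 11 sialyltransferases and 10 others. No gene of the set passed the limma test over all genes, where 0.00704% of genes did (1 gene, not a member). At an unadjusted p under 0.05 there were 3 of 21, which is 14.3% against a background of 13.0% of all tested genes. They were St3gal3, lower, and St6galnac4 and Siae, higher. The shST3GAL3 tumours lay entirely above the shControl tumours for 5 of 21 members and entirely below for 1, against 15.7% and 7.76% of all genes. The median log2 fold change was 0.06 over the 21 members, 0.01 over the sialyltransferases and 0.07 over the other genes, beside 0.01 over all genes tested. Without shST3GAL3 1 the medians were 0.06 for members and 0.04 for all genes, and at an unadjusted p under 0.05 there were 1 member higher and 1 lower, beside 8.54% and 3.13% of all genes.

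**Figure D1:**
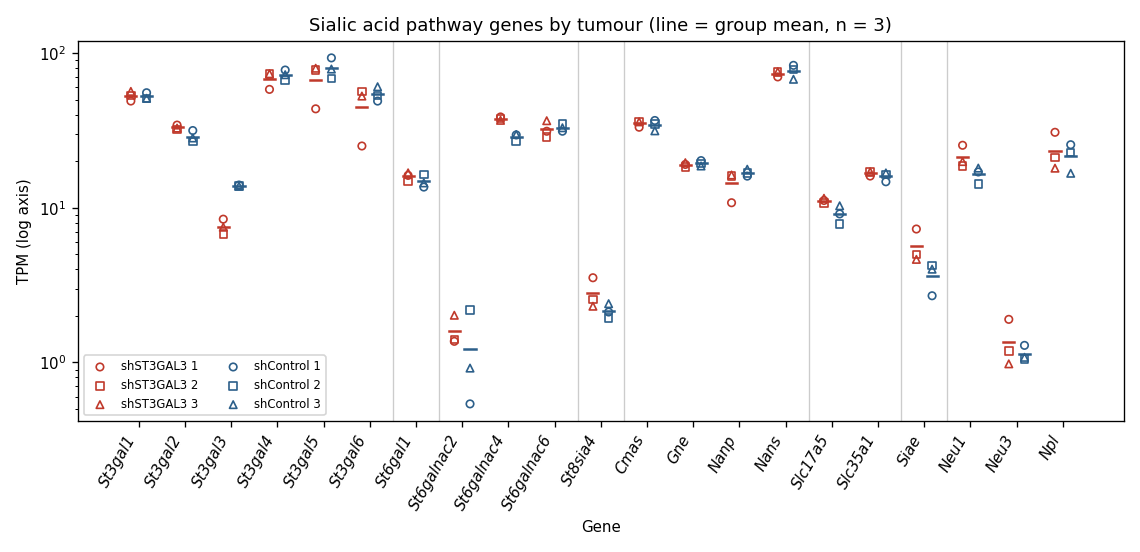
TPM (log axis) of the 21 genes that passed the filter, with shST3GAL3 tumours in red and shControl tumours in blue, a symbol per replicate number and a line at each group mean (n = 3). St3gal3 sits at 6.77 to 8.44 TPM in shST3GAL3 tumours and at 13.79 to 14.03 TPM in shControl tumours, and shST3GAL3 1 (circle) is the low point of St3gal5, St3gal6 and Nanp.

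St3gal3 was the least abundant of the 6 ST3GAL genes in all 6 tumours of both groups. It made up 3.86%, 2.26% and 2.47% of the summed ST3GAL TPM in shST3GAL3 1, 2 and 3, against 4.38%, 4.94% and 4.52% in shControl 1, 2 and 3. The groups did not overlap in this share. Among the 3 genes whose products act on galactose next to N-acetylglucosamine (St3gal3, St3gal4 and St3gal6), its share averaged 6.58% ± 2.29 in shST3GAL3 tumours and 9.90% ± 0.472 in shControl tumours (SD, n = 3 each). St3gal4 and St3gal6 thus held most of that sum in both groups. The other 5 ST3GAL genes summed to 210.1, 292.8 and 295.3 TPM in shST3GAL3 1, 2 and 3, against 306.7, 266.2 and 291.1 TPM in shControl 1, 2 and 3. The difference between groups in that sum rested on shST3GAL3 1, without which the shST3GAL3 mean was 294.1 TPM, against 288.0 TPM in shControl.

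St3gal1 and St3gal2 encode the enzymes that cap the galactose of core 1 O-glycans. St3gal1 stood at 48.97, 53.28 and 56.53 TPM in shST3GAL3 1, 2 and 3, against 55.41, 51.01 and 50.99 TPM in shControl 1, 2 and 3. The ranges overlapped widely, with a log2 fold change of 0.01 (SE 0.08) whose sign turned under other scalings and which was 0.06 without shST3GAL3 1. St3gal2 stood at 34.24, 32.16 and 32.73 TPM in shST3GAL3 1, 2 and 3, against 31.57, 26.71 and 28.26 TPM in shControl 1, 2 and 3. Its shST3GAL3 values all lay above the shControl values, by a log2 fold change of 0.19 (SE 0.09, limma adjusted p = 0.399). Since St3gal3 and St3gal2 stood on opposite sides, their ratio was 0.247, 0.211 and 0.229 in shST3GAL3 1, 2 and 3, against 0.444, 0.518 and 0.488 in shControl 1, 2 and 3.

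St3gal4 and St3gal6 encode enzymes that act on the same kind of acceptor as St3gal3, and St3gal5 encodes GM3 synthase, which starts the ganglioside series on lactosylceramide. In all of these the first shST3GAL3 tumour was the lowest of the 6. St3gal4 had 58.24, 73.43 and 73.51 TPM in shST3GAL3 1, 2 and 3, against 77.68, 67.05 and 72.45 TPM in shControl 1, 2 and 3. St3gal6 had 25.08, 56.46 and 52.73 TPM in shST3GAL3 tumours 1, 2 and 3, against 48.94, 53.13 and 60.59 TPM in shControl 1, 2 and 3. Apart from shST3GAL3 1, its values in both groups shared a range. St3gal5, the most abundant sialyltransferase on average over the 6 tumours, had 43.61, 77.51 and 79.79 TPM in shST3GAL3 tumours 1, 2 and 3, against 93.06, 68.26 and 78.84 TPM in shControl 1, 2 and 3. The log2 fold changes were -0.09 (SE 0.11), -0.35 (SE 0.30) and -0.29 (SE 0.25) for St3gal4, St3gal6 and St3gal5. Without shST3GAL3 1 they were 0.02, 0.01 and -0.01, so the lower means rested on that library. The keratin-led epithelial marker sum was lowest in the same library, at 1782 TPM; its part in these values was not tested. St3gal6 shares its locus with Dcbld2 on the opposite strand in GENCODE M21 and St3gal4 with 4930581F22Rik, and the strand setting of the authors' counting is not given, so some of their reads may be shared.

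The order of levels within the ST3GAL family was led by St3gal5 (mean of 73.5 TPM over the 6 tumours) and St3gal4 (70.4 TPM), whose values overlapped. St3gal1 (52.7 TPM) lay below St3gal4 in all 6 tumours without overlap. St3gal1 and St3gal6 (49.5 TPM) did not separate, with St3gal1 higher in 3 of 6 tumours. St3gal2 (30.9 TPM) and St3gal3 (10.7 TPM) closed the order.

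The second family, ST6GAL, rested on St6gal1, which makes the alpha2,6 links of N-glycans and is known for its high level in B cells. St6gal1 stood at 16.19, 14.84 and 16.82 TPM in shST3GAL3 1, 2 and 3, against 13.61, 16.40 and 14.48 TPM in shControl 1, 2 and 3. The groups overlapped (log2 fold change 0.10, SE 0.11). B and plasma cell markers summed to 4097, 435.3 and 162.1 TPM in the same shST3GAL3 tumours and to 133.1 to 173.7 TPM in shControl tumours, with 1 of 8 markers above the shControl range in all 3 shST3GAL3 tumours, and Pax5 and Ms4a1 under 1 TPM in every library. Xbp1 made up most of the sum in shControl tumours, at 125.74 to 130.61 TPM, and stood at 179.13, 131.02 and 123.44 TPM in shST3GAL3 1, 2 and 3. Igkc, an immunoglobulin light chain of plasma cells, made up 3772 TPM of the sum in shST3GAL3 1. The part of these cells in St6gal1 was not tested. St6gal2, its relative, was listed at 0 in all 6 libraries.

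St6galnac4 had the smallest p of the set after the target. Its product adds a sialic acid to the N-acetylgalactosamine of core 1 glycans that already carry an alpha2,3-linked one, giving the disialyl T structure. St6galnac4 (ENSMUSG00000079442, chromosome 2) stood at 38.64, 37.65 and 36.75 TPM in shST3GAL3 1, 2 and 3, against 29.58, 26.89 and 29.75 TPM in shControl 1, 2 and 3. The spread within groups was small, with means of 37.7 ± 0.945 TPM in shST3GAL3 and 28.7 ± 1.60 TPM in shControl tumours (SD, n = 3 each), and no overlap. The log2 fold change was 0.38 (SE 0.08), with an unadjusted limma p of 0.00209 and an adjusted p of 0.380, so it did not pass over all genes. Without shST3GAL3 1 it was 0.36, and over all single libraries left out it lay between 0.33 and 0.41.

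In its neighbour St6galnac6, whose product acts on gangliosides and on Lewis-type glycans, the groups overlapped. It stood at 31.23, 28.76 and 36.54 TPM in shST3GAL3 1, 2 and 3, against 31.25, 34.77 and 32.90 TPM in shControl 1, 2 and 3 (log2 fold change -0.04, SE 0.11). The ratio of St6galnac4 to St6galnac6 was 1.24, 1.31 and 1.01 in shST3GAL3 1, 2 and 3, against 0.947, 0.773 and 0.904 in shControl 1, 2 and 3. St6galnac4 was therefore the more abundant of the pair in all 3 shST3GAL3 tumours and the less abundant in all 3 shControl tumours. St6galnac2, an enzyme of O-glycans, was low and variable, with 1.37, 1.41 and 2.02 TPM in shST3GAL3 1, 2 and 3, against 0.54, 2.18 and 0.92 TPM in shControl 1, 2 and 3. A further entry of that name did not exceed 0.25 TPM and overlaps it, so reads could have been divided between them. 1810032O08Rik, which reached 22.2 TPM, lies over it on the opposite strand, so part of its reads may be shared. St6galnac5 reached 1.03 TPM in shST3GAL3 1 and lay between 0.23 and 0.39 TPM elsewhere. St6galnac3 ranged from 0.04 to 0.33 TPM and St6galnac1, the sialyl Tn synthase, from 0 to 0.07 TPM.

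Of the alpha2,8 enzymes only St8sia4, a polysialyltransferase of neural and immune cells, passed the filter. It had 3.53, 2.56 and 2.31 TPM in shST3GAL3 1, 2 and 3, against 2.12, 1.94 and 2.40 TPM in shControl 1, 2 and 3, with overlap and shST3GAL3 1 the highest (log2 fold change 0.26, SE 0.18, and 0.13 without shST3GAL3 1). St8sia2, the polysialyltransferase of the developing brain, ranged from 0.29 to 0.58 TPM in shST3GAL3 tumours and from 0.11 to 0.27 TPM in shControl tumours, below the filter. St8sia6 did not exceed 0.54 TPM, and St8sia1, the GD3 synthase, did not exceed 0.51 TPM. St8sia3 and St8sia5, enzymes mainly of the nervous system, stayed at or under 0.03 TPM.

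Summed over each class, ST3GAL transcripts held most of the sialyltransferase pool in every tumour. The pool was 312.3, 385.9 and 398.4 TPM in shST3GAL3 1, 2 and 3, against 398.5, 363.9 and 386.4 TPM in shControl 1, 2 and 3. The ST3GAL share was 69.99%, 77.65% and 76.0% in shST3GAL3 1, 2 and 3, against 80.47%, 76.95% and 78.9% in shControl 1, 2 and 3. shST3GAL3 1 was the lowest, and the other tumours of the groups overlapped. The mean shares were 74.6% ± 4.03 in shST3GAL3 and 78.8% ± 1.76 in shControl tumours (SD, n = 3 each), and 76.8% in shST3GAL3 without its first tumour. St3gal3 itself accounted for 2.11% ± 0.515 of the pool in shST3GAL3 and 3.63% ± 0.151 in shControl tumours. With St3gal3 left out of the sums the ST3GAL share was 74.0% ± 4.26 in shST3GAL3 and 78.0% ± 1.86 in shControl tumours.

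ST6GALNAC transcripts were next, at 23.3%, 17.7% and 19.1% of the pool in shST3GAL3 1, 2 and 3, against 15.5%, 17.7% and 16.7% in shControl 1, 2 and 3. The mean shares differed by 3.41 percentage points, or by 1.78 without shST3GAL3 1. As a sum they stood at 72.7, 68.3 and 76.0 TPM in shST3GAL3 1, 2 and 3, above all shControl tumours, which had 61.7, 64.5 and 64.3 TPM. St6galnac4 carried 52.2% ± 3.48 of that sum in shST3GAL3 and 45.3% ± 3.24 in shControl tumours. The ST6GAL share was 5.18%, 3.85% and 4.22% in shST3GAL3 1, 2 and 3, against 3.42%, 4.51% and 3.75% in shControl 1, 2 and 3. The groups overlapped, and the difference of the means, 0.528 percentage points, was 0.144 without shST3GAL3 1. The ST8SIA share was 1.54%, 0.801% and 0.705% in shST3GAL3 1, 2 and 3, against 0.637%, 0.819% and 0.701% in shControl 1, 2 and 3. It stood out in shST3GAL3 1 alone, with a difference of 0.295 percentage points that was 0.0339 without that tumour. Shares of a sum over the members are descriptions and were not tested. Alpha2,3 transcripts outweighed those for alpha2,6 links to galactose by 13.5, 20.2 and 18.0 times in shST3GAL3 1, 2 and 3, against 23.6, 17.1 and 21.1 times in shControl 1, 2 and 3.

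**Figure D2:**
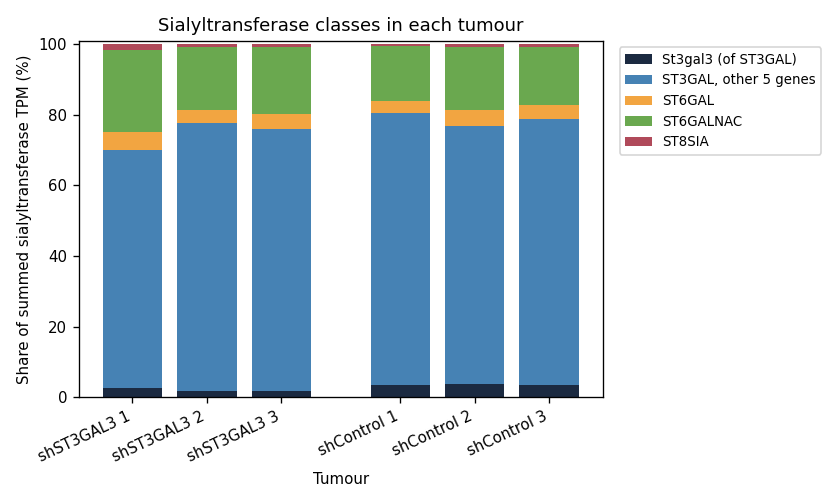
Share of the summed sialyltransferase TPM (%) held by each class in each tumour, with St3gal3 drawn apart at the base of the ST3GAL part. ST3GAL holds 69.99% in shST3GAL3 1 and between 76.0% and 80.47% in the other 5 tumours, and St3gal3 itself holds at most 3.80% of any bar.

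For all 4 genes that make the sugar donor the groups overlapped. Gne, the rate-limiting epimerase and kinase of sialic acid synthesis, stood at 19.06, 18.30 and 19.56 TPM in shST3GAL3 1, 2 and 3, against 20.18, 19.31 and 18.63 TPM in shControl 1, 2 and 3. Nans, the synthase that condenses the sugar with phosphoenolpyruvate, stood at 70.13, 75.26 and 75.78 TPM in the same shST3GAL3 tumours and at 83.30, 78.41 and 67.70 TPM in shControl 1, 2 and 3. Both overlapped between groups (log2 fold changes -0.03, SE 0.08, and -0.05, SE 0.09). Nans and St3gal5 were the most abundant genes of the set, and their order depended on shST3GAL3 1. Over all 6 tumours they averaged 75.1 and 73.5 TPM, with Nans higher in 2 of 6, and over the 5 others 76.1 and 79.5 TPM. Nans overlaps Trim14 on the opposite strand, so part of its reads may be shared. Nanp, the phosphatase of the third step, had 10.78, 16.06 and 16.29 TPM in shST3GAL3 1, 2 and 3, against 16.02, 16.83 and 17.75 TPM in shControl 1, 2 and 3. It was low in shST3GAL3 1 alone, with a log2 fold change of -0.24 (SE 0.16) that was -0.06 without that library. Nanp overlaps Ninl, which reached 4.07 TPM, on the same strand, so part of its reads may be shared. Cmas, which activates sialic acid to its CMP form, averaged 35.1 ± 1.66 TPM in shST3GAL3 and 34.3 ± 2.65 TPM in shControl tumours.

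Of the transporters, Slc35a1, which brings CMP-sialic acid into the Golgi, averaged 16.7 ± 0.601 TPM in shST3GAL3 and 16.0 ± 1.11 TPM in shControl tumours, with overlap. Slc17a5 encodes sialin, which lets free sialic acid out of the lysosome. It stood at 11.15, 10.75 and 11.52 TPM in shST3GAL3 1, 2 and 3, against 9.13, 7.85 and 10.30 TPM in shControl 1, 2 and 3. The groups did not overlap, and the log2 fold change was 0.27 (SE 0.12, limma adjusted p = 0.389), also 0.27 without shST3GAL3 1.

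Among the genes of modification and removal, Siae and Neu1 also lay above the shControl range in all 3 shST3GAL3 tumours. Siae, an esterase that takes O-acetyl groups off sialic acid, had 7.29, 4.97 and 4.64 TPM in shST3GAL3 1, 2 and 3, against 2.70, 4.23 and 4.01 TPM in shControl 1, 2 and 3. Its log2 fold change was 0.51 (SE 0.21, unadjusted limma p 0.0498, adjusted p = 0.385) and 0.34 without shST3GAL3 1, where the unadjusted p was 0.121. Siae overlaps the more abundant Tbrg1 on the opposite strand, so part of its reads may be shared. Neu1, the lysosomal sialidase, had 25.35, 18.64 and 19.90 TPM in shST3GAL3 1, 2 and 3, against 17.04, 14.23 and 18.05 TPM in shControl 1, 2 and 3. Its log2 fold change was 0.35 (SE 0.15, limma adjusted p = 0.385), and 0.22 without shST3GAL3 1, a change of over 1.5 times in size.

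Neu1 made up 93.5% ± 1.17 of the summed sialidase TPM in shST3GAL3 and 93.4% ± 0.835 in shControl tumours. Neu3, the sialidase of the plasma membrane that acts on gangliosides, had 1.90, 1.19 and 0.98 TPM in shST3GAL3 1, 2 and 3, against 1.29, 1.05 and 1.08 TPM in shControl 1, 2 and 3 (log2 fold change 0.12, and -0.04 without shST3GAL3 1). Neu2 stayed at or under 0.27 TPM, and Neu4 was listed at 0 in all 6 libraries. Npl, the lyase that breaks free sialic acid down, had 30.75, 21.18 and 18.03 TPM in shST3GAL3 1, 2 and 3, against 25.56, 22.85 and 16.71 TPM in shControl 1, 2 and 3. Both groups spanned much the same range apart from shST3GAL3 1 (log2 fold change 0.09, and -0.12 without it). Cmah, which turns the common sialic acid into its glycolyl form, had 2.39, 0.47 and 0.60 TPM in shST3GAL3 1, 2 and 3, against 0.44, 0.47 and 0.23 TPM in shControl 1, 2 and 3, below the filter and high in a single tumour.

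The first shST3GAL3 tumour was the highest of 6 for 7 of the 21 tested members, St3gal2, St6galnac4, St8sia4, Siae, Neu1, Neu3 and Npl, and the lowest for 5, against 28.6% and 36.7% of all tested genes. Below the filter it was also the highest for St6galnac5, St8sia2, St8sia6, Cmah and the further St6galnac2 entry. Macrophage markers summed to 2326, 1788 and 1313 TPM in shST3GAL3 1, 2 and 3, against 1106 to 1318 TPM in shControl tumours. Of these 9 markers 8 were highest in shST3GAL3 1, 4 lay above the shControl range in all 3 shST3GAL3 tumours and none was at 0. The fibroblast, endothelial, adipocyte, B and plasma cell, T cell and erythroid sums were highest in that tumour too. T cell markers summed to 176.4, 162.3 and 85.23 TPM in shST3GAL3 1, 2 and 3, against 68.12 to 94.17 TPM in shControl tumours. Of these 10 markers 5 were highest in shST3GAL3 1, and 3 lay above the shControl range in all 3 shST3GAL3 tumours. Erythroid markers summed to 318.4, 265.6 and 184.6 TPM, against 120.9 to 163.5 TPM, with 3 of 5 highest in shST3GAL3 1 and 3 of 5 above the shControl range in all 3. The neutrophil and skeletal muscle sums were not highest in shST3GAL3 1 and overlapped between groups. Still, 5 of the 7 neutrophil markers were highest in shST3GAL3 1. Mmp9, the largest part of the neutrophil sum, was lowest there, at 326.45 TPM against 450.49 to 621.16 TPM in the other libraries. The part of these cells in the members' values was not tested.

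**Figure D3:**
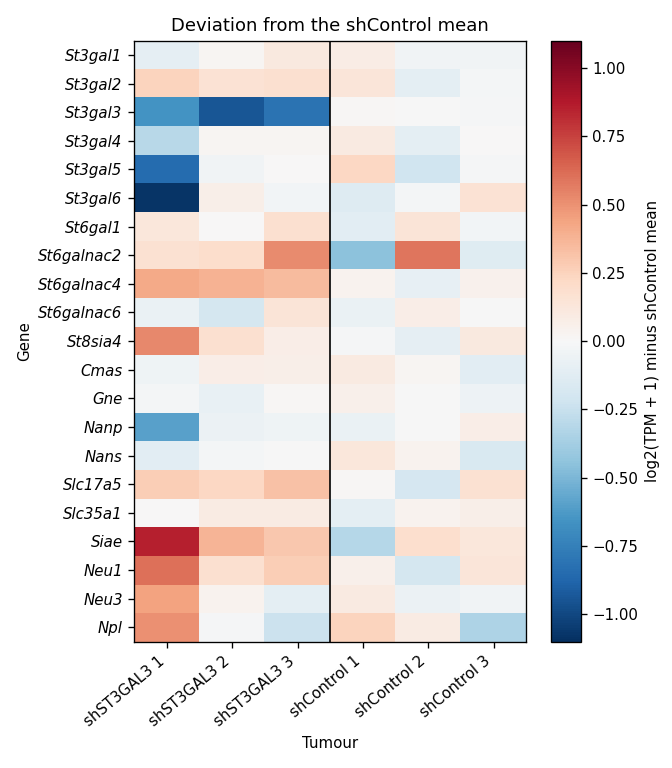
Deviation of each tested member from the shControl mean on log2(TPM + 1), by tumour, red above and blue below. St3gal3 is blue in all 3 shST3GAL3 tumours and St6galnac4 red in all 3, while St3gal5, St3gal6 and Nanp are deep blue in shST3GAL3 1 alone.

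**Figure D4:**
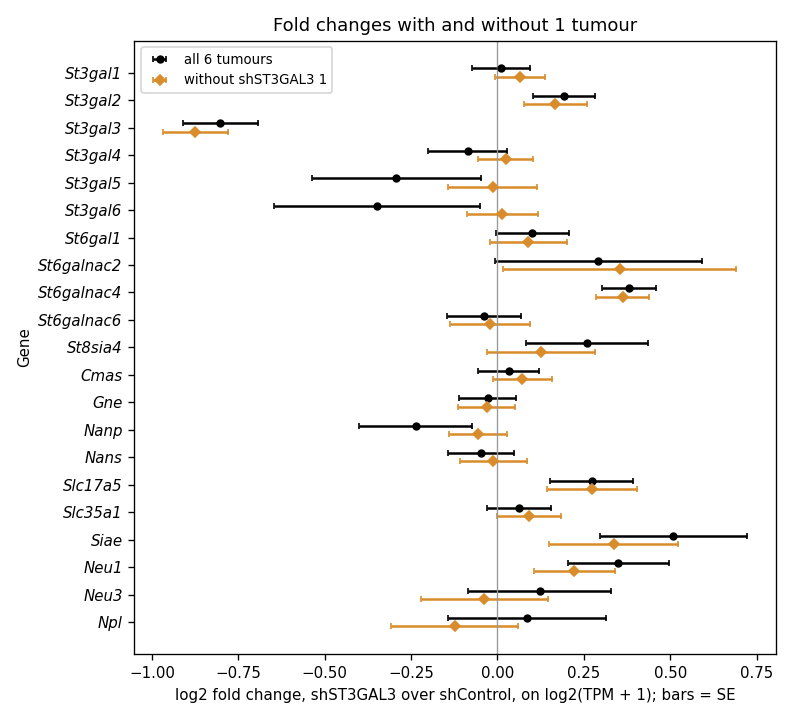
Log2 fold changes of shST3GAL3 over shControl with their SE for the 21 tested members, over all 6 tumours (black) and without shST3GAL3 1 (orange). St3gal3 is -0.80 and -0.87, St6galnac4 0.38 and 0.36, while St3gal6 moves between -0.35 and 0.01.

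The steps before sialic acid, which supply UDP-N-acetylglucosamine or recycle its sugar, were read from a list of 11 genes, all tested. None passed over all genes; at an unadjusted p under 0.05 there were 1 higher and 1 lower, beside 9.19% higher and 3.78% lower of all tested genes, and the median log2 fold change was -0.03. Renbp, a renin-binding protein that interconverts the N-acetylated sugars, had 46.40, 39.87 and 37.68 TPM in shST3GAL3 1, 2 and 3, against 33.66, 33.18 and 34.14 TPM in shControl 1, 2 and 3 (0.28, SE 0.10). Gfpt1, the entry enzyme of the hexosamine pathway, had 35.10, 41.77 and 41.30 TPM in shST3GAL3 1, 2 and 3, against 47.44, 47.03 and 45.87 TPM in shControl 1, 2 and 3 (-0.25, SE 0.09). These groups did not overlap for either gene. Gnpnat1, an acetyltransferase of the same pathway, averaged 11.5 ± 0.61 TPM in shST3GAL3 and 14.2 ± 1.78 TPM in shControl tumours (-0.27, SE 0.11). Its groups did not overlap either. Over the list, 2 of 11 genes lay entirely above the shControl tumours and 2 entirely below, against 15.7% and 7.76% of all tested genes.

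Of 3 genes that work with the sialidases or O-acetylate sialic acid, none passed over all genes and 1 was higher at an unadjusted p under 0.05, beside 9.19% of all tested genes, with a median log2 fold change of 0.05. Ctsa, the protective protein that Neu1 needs in the lysosome, stood at 411.79, 342.97 and 335.18 TPM in shST3GAL3 1, 2 and 3, against 293.62, 290.42 and 271.89 TPM in shControl 1, 2 and 3. All shST3GAL3 values were higher, as for Neu1, with a log2 fold change of 0.34 (SE 0.10, limma adjusted p = 0.380). Glb1, the third member of that lysosomal complex, averaged 58.7 ± 3.02 TPM in shST3GAL3 and 56.9 ± 5.36 TPM in shControl tumours, and Casd1, the O-acetyltransferase, 15.6 ± 2.44 TPM in shST3GAL3 and 16.5 ± 1.67 TPM in shControl.

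A list of 5 enzymes held those that build the lipid acceptor of St3gal5 and those that act on the gangliosides made from it. None passed over all genes and 1 was higher at an unadjusted limma p under 0.05, beside the same 9.19% of all tested genes. The median log2 fold change was 0.32, or 0.17 without shST3GAL3 1, beside 0.01 over all genes tested. B4galnt1, which makes GM2 and GD2, had 68.90, 61.58 and 61.32 TPM in shST3GAL3 1, 2 and 3, against 49.08, 53.74 and 48.83 TPM in shControl 1, 2 and 3. The groups did not overlap (0.33, SE 0.08, limma adjusted p = 0.380). B4galt6, a lactosylceramide synthase, had 4.88, 2.51 and 1.99 TPM in shST3GAL3 1, 2 and 3, against 1.70, 1.88 and 1.84 TPM in shControl 1, 2 and 3. The groups did not overlap, but the log2 fold change of 0.49 (SE 0.27) was 0.21 without shST3GAL3 1. B3galt4, which extends GM2 to GM1, had 5.33, 3.47 and 3.74 TPM in shST3GAL3 1, 2 and 3, against 2.72, 2.83 and 3.81 TPM in shControl 1, 2 and 3. These groups overlapped, and the log2 fold change of 0.32 (SE 0.19) was 0.17 without shST3GAL3 1. Ugcg averaged 60.8 ± 7.0 TPM in shST3GAL3 and 58.7 ± 3.3 TPM in shControl tumours. B4galt5 averaged 40.5 ± 5.69 TPM in shST3GAL3 and 36.1 ± 3.63 TPM in shControl tumours. Both overlapped between groups, with log2 fold changes of 0.04 and 0.16, or -0.03 and 0.06 without shST3GAL3 1.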

How the data were processed

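RNA sequencing was done on 6 HM1 tumours, 3 shST3GAL3 and 3 shControl, grouped by their titles. The deposited values are TPM per gene with 2 decimals; every library has the same total. Per the submitters' processing notes, fastp, HISAT and RSEM were used with the build GRCm39 (no versions). Annotation, parameters and strand setting are not given in these sources. The files also hold a gene length, per the file headers. TPM keeps no depth, so no counting interval or detection floor is given and precision rests on the replicates.

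Genes with at least 1 TPM in 3 or more libraries (14207) were fitted with limma 3.58.1 in R 4.3.3 on log2(TPM + 1), with a mean-variance trend and group as the only term. Benjamini-Hochberg adjustment ran over all tested genes (threshold 0.05). Fold changes, all on the log2(TPM + 1) scale, understate those of low genes. The fit was also run on simulated data with these means and spreads, over 10 runs with 200 changed genes in 14207. There it recovered 62.8% of the genes changed by 1 on the log2 scale and 89.5% of those changed by 2. These rates hold for that setting only. Recovery with fewer changed genes, or with a library that stands apart as shST3GAL3 1 did, was not tested.

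The members, lists and tests were chosen with earlier results of these data known. All 33 members are named, and up to 3 genes of each further list by smallest p, except that all 5 ganglioside enzymes are named. A marker of the B and plasma cell list is not reported here and was left out of its sums. Class shares are sums over gene entries. Chromosomes and overlapping genes come from GENCODE M21 by gene ID (95.8% matched). Alternatives covered pseudocounts, filters, scalings, library weights, a replicate block and each library left out; the count of members at an unadjusted p without each library was added after seeing the data.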

Additional observations from a re-analysis of the deposited data

How the results depend on the processing

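St3gal3 kept its direction in all 15 alternative fits, and passed in 1 of them, with library weights (log2 fold change -0.89, adjusted p = 0.0337), where 1 member was thus called lower instead of 0. Leaving out each library gave -0.87 to -0.73, and 0 members were called. Over all genes 0 higher and 1 lower became 5 and 3 with library weights, 1 and 1 with a pseudocount of 0.1 or 0.5, and 0 to 2 and 1 to 2 with a library left out. The difference in class share (percentage points) ranged over libraries left out from -5.78 to -1.95 for ST3GAL, 0.144 to 0.836 for ST6GAL, 1.78 to 4.57 for ST6GALNAC and 0.0339 to 0.45 for ST8SIA. With each gene scaled to its own mean, which gives genes near 0 the weight of abundant ones, ST3GAL came to -6.54, ST6GAL to -0.00115, ST6GALNAC to 13.6 and ST8SIA to -7.03. Members at an unadjusted p under 0.05 numbered 1 to 2 higher and 1 lower with a library left out; the higher count was 1 without shST3GAL3 1 or shControl 2.

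Small log2 fold changes turned sign: St3gal1 to -0.0262 with median-ratio scaling, -0.0257 with quantiles and -0.0153 with mitochondrial, immunoglobulin and ribosomal protein genes left out; Cmas to -0.0041 and -0.0028 under the same median-ratio and quantile scalings; Slc35a1 to -0.0092 and Neu3 to -0.0301 with quantiles; Npl to -0.0396 with library weights. The cause was not tested. With a library left out the ranges were -0.0369 to 0.0647 for St3gal1, -0.132 to 0.0159 for Nans, -0.142 to 0.0235 for St3gal4, -0.555 to 0.0144 for St3gal6, -0.0272 to 0.0807 for Cmas, -0.132 to 0.0353 for St6galnac6, -0.124 to 0.245 for Npl and -0.0376 to 0.238 for Neu3. The scalings moved the median of all genes to between -0.053 and -0.0098, from 0.01 in the main fit.

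The replicate numbers were not shown to pair the tumours: deviations of same-numbered tumours correlated at 0.014, -0.08 and 0.04. With the replicate block 0 members were called, and St3gal3 stood at -0.80 (adjusted p = 0.332). Depth is unknown, so members near 0 TPM cannot be called absent.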
